A study of Mus musculus with 30 samples.

Results

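The genes described here are 10 members of the NRF2 antioxidant response in mouse embryonic stem (ES) cells: Nqo1, Srxn1, Txnrd1, Gclm, Gclc, Cbr3, Hmox1, Gsr, Prdx1 and Nfe2l2. They were taken by symbol from the annotation of an Illumina BeadChip, a 1-colour array that carries 24611 probes. The 10 symbols matched 14 probes, 13 of which passed the filter on dim probes, and all 10 genes were among the 9809 genes tested. The cells were of Ainv15, a male ES cell line in which doxycycline switches on a gene placed behind an inducible promoter. The 28 samples formed 7 groups of 4. ESC samples spent 6 hours in ES cell medium, which holds serum, a serum replacement and LIF. N2B27 samples spent 6 hours in serum-free N2B27 medium with its N2 and B27 supplements. The Dox group had N2B27 with doxycycline at 2 ug/ml. The DAPT group had N2B27 with DAPT, an inhibitor of gamma-secretase, at 2.5 ng/ml, preceded by 4 hours of DAPT in ES cell medium. The groups 1% O2, 1% O2+Dox and 1% O2+DAPT had the same media and agents under 1% oxygen. Both media contained mercaptoethanol, a thiol reductant. As known of the study, the induced gene is the intracellular domain of Notch1, which the labels do not name. No cells without that gene received doxycycline, so the drug and the induced gene cannot be told apart. Because of the 4 hours of pretreatment, the DAPT groups and their controls were not treated alike in every other respect.

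NRF2, the product of Nfe2l2, is a transcription factor that cells make continuously and destroy continuously. The adaptor protein KEAP1 holds it for ubiquitination, and oxidants or electrophiles that modify cysteines of KEAP1 let newly made NRF2 reach the nucleus. There it pairs with small MAF proteins and binds antioxidant response elements in front of genes for glutathione synthesis, thiol repair, quinone reduction and haem breakdown, whereas BACH1 occupies many of the same elements and represses them. Because NRF2 is governed mainly at the protein level, its messenger RNA is not a measure of its activity.

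The response element has a short core, here searched as TGACNNNGC, and as the looser TGANNNNGC that contains it. Each window ran from 250 bases before to 50 bases after a gene's start in RefSeq (GRCm38.p6), and both strands were read. Of 32851 such windows, 12.4% held the core and 41.3% the looser form. RefSeq gave 9 windows for 7 of the 10 genes, 3 of them for Txnrd1. The core occurred in 5 of the 9 windows, 1 each for Srxn1, Txnrd1, Gclm, Prdx1 and Nfe2l2, and neither form occurred in the Nqo1 and Cbr3 windows. The 250 bases before the start are printed below for Srxn1, Gclm and Cbr3, 3 genes that rose in serum-free medium and fell under low oxygen, and for Prdx1, which passed neither test. Capitals mark matches to the looser form, and a match on the opposite strand appears as its reverse complement. Srxn1 lies at chr2:152105274-152105523, Gclm at chr3:122245307-122245556, Prdx1 at chr4:116685349-116685598 and Cbr3 at chr16:93682969-93683218, all on the plus strand.
Srxn1: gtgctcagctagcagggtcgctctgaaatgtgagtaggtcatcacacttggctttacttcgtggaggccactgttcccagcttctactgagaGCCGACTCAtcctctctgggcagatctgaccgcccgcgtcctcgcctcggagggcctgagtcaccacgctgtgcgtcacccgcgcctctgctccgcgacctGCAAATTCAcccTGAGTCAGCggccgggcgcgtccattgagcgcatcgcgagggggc
Gclm: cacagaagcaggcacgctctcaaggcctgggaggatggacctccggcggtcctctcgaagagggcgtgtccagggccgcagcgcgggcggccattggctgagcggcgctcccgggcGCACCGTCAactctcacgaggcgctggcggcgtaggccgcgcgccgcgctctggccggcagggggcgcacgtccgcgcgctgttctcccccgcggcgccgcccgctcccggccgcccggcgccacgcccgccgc
Prdx1: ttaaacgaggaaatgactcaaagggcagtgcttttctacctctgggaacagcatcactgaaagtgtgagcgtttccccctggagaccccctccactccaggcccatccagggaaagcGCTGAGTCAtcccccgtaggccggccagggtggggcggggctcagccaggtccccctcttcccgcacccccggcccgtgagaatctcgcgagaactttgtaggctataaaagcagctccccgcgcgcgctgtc
Cbr3: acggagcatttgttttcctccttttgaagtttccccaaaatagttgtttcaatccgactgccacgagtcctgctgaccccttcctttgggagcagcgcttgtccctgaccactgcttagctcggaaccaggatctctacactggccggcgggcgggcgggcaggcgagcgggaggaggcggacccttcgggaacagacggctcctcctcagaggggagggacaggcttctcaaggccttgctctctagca
The 3 Srxn1 matches begin 158, 57 and 45 bases before the start, and its core match lies beyond the start, outside the printed stretch. The Gclm and Prdx1 matches begin 134 and 133 bases before the start, and both are core matches. A match of letters is a description of the sequence and not a binding site, and 250 bases leave more distant elements unread.

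As a check on the samples, 7 of 7 ES cell markers on the array (Pou5f1, Nanog, Sox2, Zfp42, Klf4, Esrrb and Tdgf1) lay above background in all 28 samples, and their summed signal ranged from 37546 to 42782 in ESC, from 35529 to 42274 in N2B27 and from 33199 to 45003 in 1% O2. With the block, Tdgf1 (0.71) and Klf4 (0.27) of these were higher in 1% O2 than in N2B27. Of the markers of other cells on the array, 2 of 2 for mesoderm (Mesp1 and Kdr), 2 of 4 neural ones (Sox1 and Pax6), Foxa2 and Elf5 lay above background in 0 of 28 samples. In 28 of 28 lay 1 of 4 neural markers (Tubb3), 3 of 4 endoderm markers (Gata4, Gata6 and Sox17), 2 of 3 trophectoderm markers (Cdx2 and Eomes) and 2 of 6 fibroblast markers (Thy1 and Pdgfrb). The other fibroblast markers lay above background in 27 (Col1a1), 16 (Dcn), 5 (Col3a1) and 1 (Col1a2) of 28 samples, and the neural marker Neurog2 in 1. Summed over each list, the signals of markers of other cells were low beside those of the ES cell markers. They reached at most 1569 in any of ESC, N2B27 and 1% O2. None of these markers passed without the block in N2B27 against ESC or in 1% O2 against N2B27. With it, Thy1 (-0.52) and Dcn (-0.60) were lower in N2B27 than in ESC, and in 1% O2 against N2B27 Thy1 (-0.49) was lower while Eomes (0.82), Gata6 (0.43), Sox17 (0.36) and Pdgfrb (0.30) were higher. Between ESC, N2B27 and 1% O2 the summed fibroblast signal ran from 626 to 1188, 453 to 975 and 411 to 982, that of endoderm from 632 to 1119, 730 to 1120 and 689 to 1569, and that of trophectoderm from 292 to 583, 260 to 606 and 331 to 780. The part of such cells in the results below was not tested. Of 7 genes tested that low oxygen is known to induce, 6 were higher in 1% O2 than in N2B27, among them Adm by 4.60 and Egln3 by 3.90 on the log2 scale. Along the first principal component (51.5% of variance) replicates 1 and 2 of each group lay apart from replicates 3 and 4, and the labels do not say how these sets arose. Samples with the same replicate number deviated together in all 36 comparisons made (r between 0.72 and 0.83). Each test was therefore also run with the replicate number as a block. The split between the sets also raises such correlations, and samples of different numbers within a set were not compared. These values thus do not show that single numbers pair the samples. The labels call the samples biological replicates without naming separate cultures, so p-values measure the spread between these samples, which may be technical. In such bulk samples a smaller share of expressing cells cannot be told apart from less RNA per cell.

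The first comparison asked what the change to serum-free medium did within 6 hours. In N2B27, 4 of the 10 genes were higher than in ESC and none was lower: Cbr3 by 2.43-fold, Nqo1 by 1.81-fold, Srxn1 by 1.75-fold and Gclm by 1.44-fold (limma, adjusted p under 0.05, 4 samples per group). Over all 9809 genes, 1.94% passed this test, 1.22% higher and 0.714% lower. The 10 genes were chosen with earlier results of these data known, so such shares describe the set and do not test it. All 10 genes had a positive log2 difference, with a median of 0.36 against 0.01 over all genes. With the replicate block, Txnrd1, Gsr and Hmox1 passed as well, giving 7 of 10 beside 16.1% of all genes in either direction and 8.37% higher. The N2B27 and ESC samples did not overlap for 5 of the 10 genes, beside 6.92% of all genes.

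The next comparison asked what 1% oxygen did to cells already in N2B27. Here 3 genes were lower, Cbr3 by 1.63-fold, Gclm by 1.34-fold and Srxn1 by 1.34-fold, and Hmox1 was 1.49-fold higher. Over all genes, 4.12% passed in this comparison, 1.28% lower and 2.83% higher. The median log2 difference of the 10 genes was -0.24, against -0.02 over all genes. With the block, Txnrd1 was also lower, giving 5 of 10 beside 20% of all genes. The same 4 N2B27 samples served in both comparisons, so a chance error in them would push the medium and the oxygen differences in opposite directions. The oxygen comparisons within Dox and within DAPT, which use none of these samples, are given below.

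**Figure D1:**
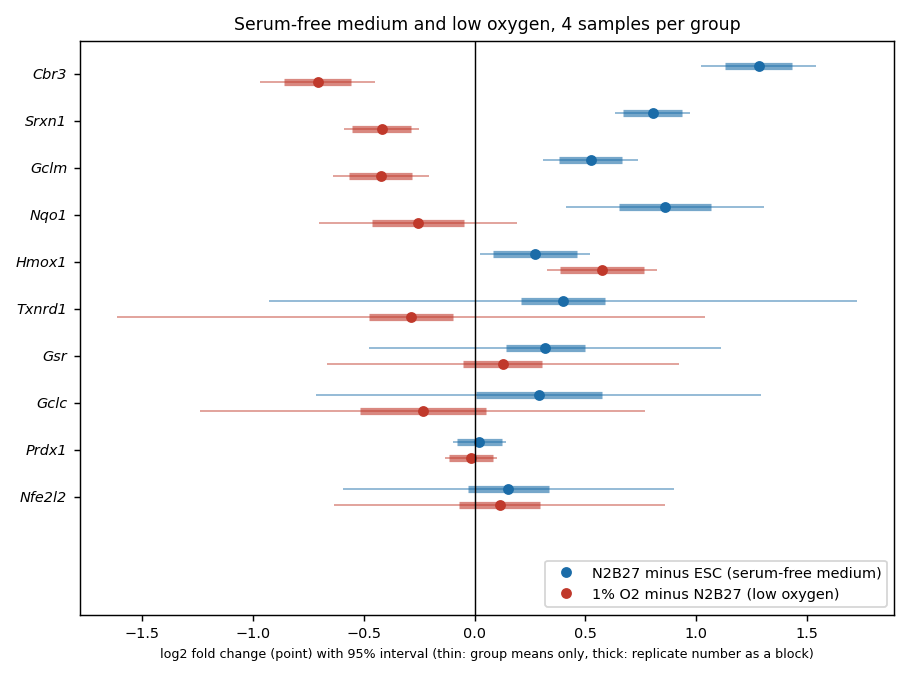
Log2 fold change of each gene in N2B27 against ESC (blue) and in 1% O2 against N2B27 (red), 4 samples per group. Thin lines are 95% intervals from group means alone and thick lines those with the replicate number as a block. Cbr3, Srxn1 and Gclm lie to the right of 0 in blue and to the left in red, while Hmox1 lies to the right in both.

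Cbr3 encodes a carbonyl reductase that uses NADPH to reduce quinones and other carbonyls. Its log2 level was 9.15, 9.10, 8.97 and 8.76 in ESC samples 1 to 4 and 10.33, 10.41, 10.22 and 10.14 in N2B27. In 1% O2 it was 9.78, 9.65, 9.43 and 9.41. Every N2B27 sample lay above every ESC and 1% O2 sample, and every 1% O2 sample lay above every ESC sample. The log2 difference was 1.28 ± 0.13 (SE) for the medium (adjusted p = 2.16e-06) and -0.71 ± 0.13 for oxygen (adjusted p = 0.000804). Within replicate numbers the medium difference ranged from 1.18 to 1.38 and the oxygen difference from -0.80 to -0.55, so all 4 pairs went the same way in each. Cbr3 passed both tests in replicates 1 and 2 alone and in replicates 3 and 4 alone.

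Nqo1 encodes the quinone reductase that is among the most used readouts of NRF2. Its log2 level was 7.998, 8.53, 7.82 and 7.98 in ESC and 8.82, 9.25, 8.76 and 8.94 in N2B27. In 1% O2 it was 8.74, 8.96, 8.29 and 8.75. The lowest N2B27 sample lay above the highest ESC sample, while the 1% O2 samples overlapped both groups. The medium difference was 0.86 ± 0.22 (adjusted p = 0.037), and leaving out a single sample ended this call in 7 of 8 cases, with an adjusted p of up to 0.132 without N2B27 sample 2. With the block the adjusted p was 2.65e-06, and the 4 pairs ranged from 0.72 to 0.97. The oxygen difference was -0.26 ± 0.22 and did not pass (adjusted p = 0.783, or 0.0786 with the block), although all 4 pairs were negative, as for 20.4% of all genes. With median scaling and the block the oxygen difference passed (-0.29, adjusted p = 0.0398). With the authors' values and the block it did not (-0.26, adjusted p = 0.103). A dimmer Nqo1 probe, above background in 12 of 28 samples, gave 0.29 ± 0.40 for the medium and 0.01 ± 0.40 for oxygen, so the Nqo1 rise rests on its brighter probe.

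Srxn1 encodes sulfiredoxin, which restores peroxiredoxins that peroxide has inactivated. Its log2 level was 9.58, 9.80, 9.73 and 9.60 in ESC and 10.49, 10.62, 10.58 and 10.24 in N2B27. In 1% O2 it was 10.08, 10.11, 10.02 and 10.03. The 3 groups did not overlap, and 1% O2 lay between ESC and N2B27. The medium difference was 0.80 ± 0.08 (adjusted p = 2.17e-06) and the oxygen difference -0.42 ± 0.08 (adjusted p = 0.00204). Srxn1 has 3 probes, all above background in 28 of 28 samples. The other two gave 0.60 ± 0.15 and 0.59 ± 0.15 for the medium and -0.36 ± 0.15 and -0.34 ± 0.15 for oxygen. Tested over 12259 probes, their medium differences had adjusted p = 0.0333 and 0.056 and their oxygen differences 0.259 and 0.335, all 4 passing with the block. All 3 probes thus had the same signs, and the mean over them missed the threshold for 1% O2 against N2B27 (-0.37, adjusted p = 0.062), for 1% O2 against ESC (0.29, adjusted p = 0.105) and for 1% O2+DAPT against DAPT (-0.36, adjusted p = 0.0705).

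Prdx1 encodes a peroxiredoxin, the abundant peroxide-reducing enzyme whose family sulfiredoxin repairs. Its log2 level was 15.15, 15.15, 15.03 and 15.04 in ESC, 15.19, 15.08, 15.09 and 15.10 in N2B27, and 15.10, 15.08, 15.10 and 15.10 in 1% O2. The groups overlapped throughout. The difference was 0.022 (95% interval -0.10 to 0.14) for the medium and -0.017 (-0.13 to 0.10) for oxygen. The probe ranked between 44 and 64 of 24611 on every array. Quantile normalization gives probes of the same rank the same value, so its level can move little on this scale and equal values occur.

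Txnrd1 encodes the cytosolic thioredoxin reductase, and Gsr the reductase that recycles oxidized glutathione. Txnrd1 levels (log2) were 8.51, 8.63, 10.37 and 10.38 in ESC, 9.26, 8.96, 10.67 and 10.60 in N2B27, and 8.83, 8.75, 10.38 and 10.38 in 1% O2. Gsr levels were 10.53, 10.32, 11.41 and 11.35 in ESC, 10.95, 10.71, 11.66 and 11.56 in N2B27, and 10.93, 10.90, 11.84 and 11.73 in 1% O2. In every group replicates 3 and 4 lay above replicates 1 and 2 for both genes, and this gap exceeded any difference between the groups. Txnrd1 differed by 0.40 for the medium and -0.29 for oxygen. These passed with the block (adjusted p = 0.00371 and 0.0294) and not without it, and each had 4 of 4 pairs of the same sign. The blocked oxygen call of Txnrd1 remained in 2 of 8 cases with a sample left out, with an adjusted p of up to 0.0992 without N2B27 sample 1. Gsr differed by 0.32 for the medium, which passed with the block (adjusted p = 0.0127, and 0.0521 without N2B27 sample 2), and by 0.13 for oxygen, which did not.

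Gclm and Gclc encode the modifier and catalytic subunits of glutamate-cysteine ligase, which catalyses the first and limiting step of glutathione synthesis. The log2 level of Gclm was 11.0015, 10.9863, 10.7492 and 10.8753 in ESC and 11.60, 11.47, 11.37 and 11.28 in N2B27. In 1% O2 it was 11.30, 10.83, 10.85 and 11.03. All N2B27 samples lay above all ESC samples, 3 of the 4 1% O2 samples lay below all N2B27 samples, and sample 1 of 1% O2 overlapped them. The medium difference was 0.52 ± 0.10 (adjusted p = 0.0069) and the oxygen difference -0.42 ± 0.10 (adjusted p = 0.0183). Leaving out a single sample ended the oxygen call of Gclm in 4 of 8 cases without the block (adjusted p of up to 0.0901, without 1% O2 sample 3) and in 0 of 8 with it. Gclc was dim, above background in 19 of 28 samples, with log2 levels of 5.81, 5.93, 7.10 and 7.28 in ESC, 6.28, 6.48, 7.15 and 7.38 in N2B27, and 6.06, 5.83, 7.07 and 7.38 in 1% O2. Its groups overlapped. Its difference of 0.29 for the medium had a blocked 95% interval of 0.01 to 0.58 and that of -0.23 for oxygen one of -0.52 to 0.05, and neither passed (adjusted p = 0.165 and 0.256 with the block). That Gclm passed and Gclc did not is no test of a difference between the subunits.

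Hmox1 encodes haem oxygenase 1, which degrades haem and answers to NRF2, BACH1 and hypoxia-inducible factors in various cells. Its log2 level was 12.11, 12.29, 12.18 and 12.32 in ESC and 12.47, 12.62, 12.43 and 12.47 in N2B27. In 1% O2 it was 13.27, 13.01, 13.10 and 12.91. The 3 groups did not overlap and lay in that order. The oxygen difference was 0.58 ± 0.12 (adjusted p = 0.00395), opposite in sign to those of Cbr3, Srxn1 and Gclm. The medium difference was 0.27 ± 0.12 (adjusted p = 0.361), and with the block its adjusted p of 0.0454 was close to the threshold. That blocked call was lost with median scaling (adjusted p = 0.158) and held in 2 of 8 cases with a sample left out, with an adjusted p of up to 0.201 without ESC sample 1.

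Nfe2l2 encodes NRF2 itself. Its log2 level was 8.46, 8.45, 7.32 and 7.73 in ESC, 8.44, 8.64, 7.59 and 7.90 in N2B27, and 8.49, 8.69, 7.79 and 8.05 in 1% O2. Replicates 1 and 2 lay above replicates 3 and 4 in every group, the reverse of Txnrd1 and Gsr, and the groups overlapped. The medium difference was 0.15 (blocked 95% interval -0.03 to 0.33) and the oxygen difference 0.11 (-0.07 to 0.30), and neither passed. The other Nfe2l2 probe was above background in 0 of 28 samples and was not tested.

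**Figure D2:**
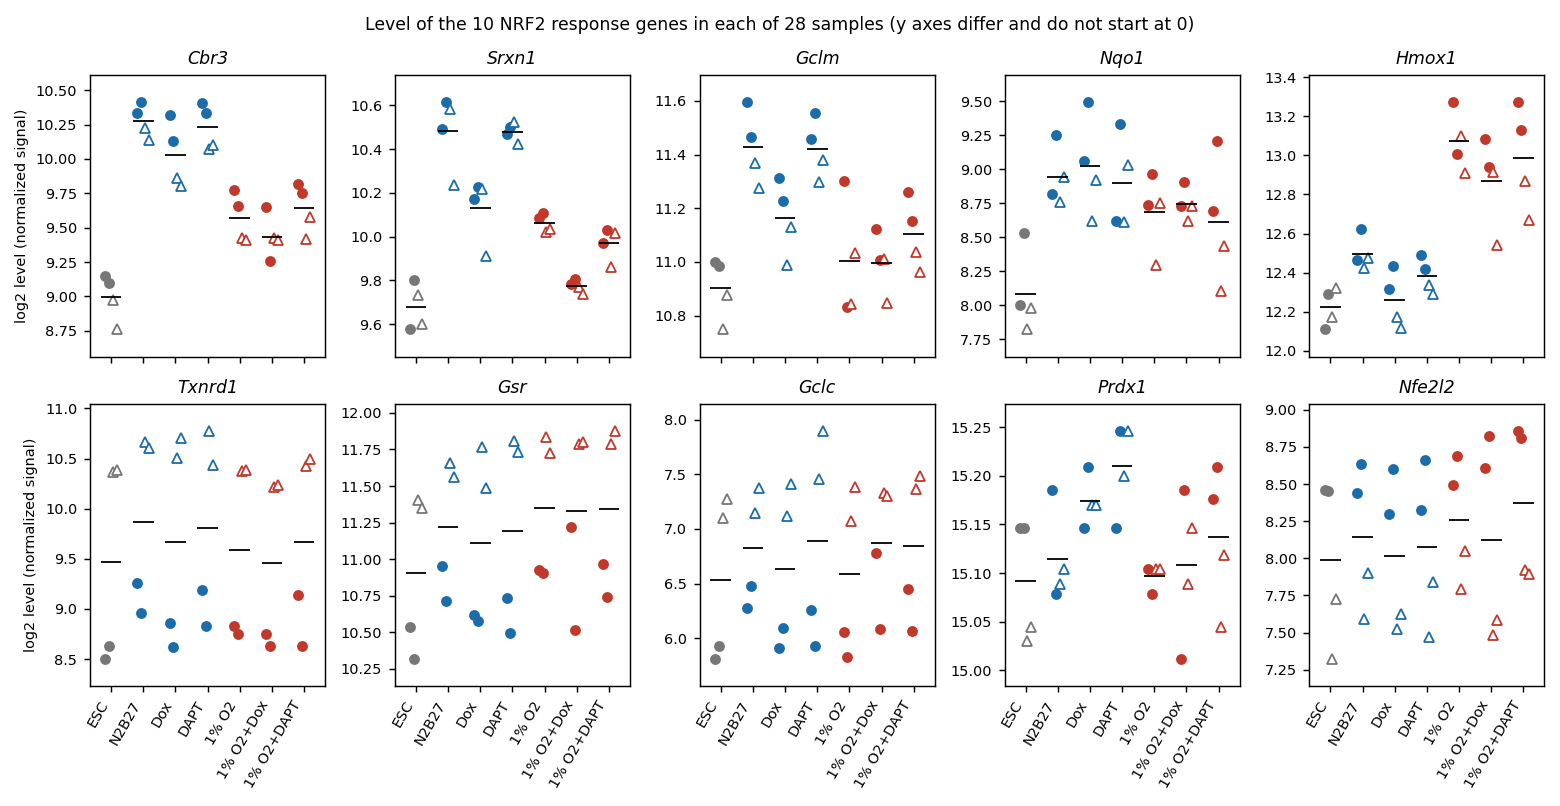
Log2 level of each gene in each of the 28 samples, in grey for ESC, blue for the N2B27 groups and red for the groups under 1% O2. Filled circles are replicates 1 and 2, open triangles replicates 3 and 4, and the line is the group mean; the y axes differ and do not start at 0. Cbr3 forms 3 tiers, with ESC lowest at 8.99, while Txnrd1, Gclc and Gsr split by replicate set in every group.

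The split between replicate sets was uneven over the 10 genes. Averaged over the groups, replicates 3 and 4 exceeded replicates 1 and 2 by 1.64 for Txnrd1, 1.2 for Gclc and 0.96 for Gsr on the log2 scale, and Nfe2l2 was lower by 0.89 (a log2 difference of -0.89). The other 6 genes differed by at most 0.34 in size, and the median size over all genes was 0.22. The genes with a large split had the widest unblocked intervals, and the source of the split was not tested.

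Whether the medium and oxygen effects of a gene differ was tested directly, as the medium effect minus the oxygen effect in a fit that accounts for the shared N2B27 samples. The difference passed for Cbr3 (1.99 ± 0.22, adjusted p = 4.28e-06), Srxn1 (1.22 ± 0.14, adjusted p = 6.89e-06) and Gclm (0.95 ± 0.18, adjusted p = 0.004), beside 1.39% of all genes in either direction and 0.428% higher. With the block it also passed for Nqo1 (1.12, adjusted p = 0.000112) and Txnrd1 (0.69, adjusted p = 0.00573), beside 11.1% of all genes in either direction and 5.49% higher. Hmox1 had a difference of -0.30 with a 95% interval of -0.73 to 0.13. The oxygen effect was also taken from the Dox and DAPT pairs, which share no sample with the medium effect. Cbr3 then differed by 1.87, Srxn1 by 1.24, Gclm by 0.77 and Nqo1 by 1.14, and all 4 passed. The share of all genes that passed this form of the test was not counted.

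Compared with ESC, cells in N2B27 under 1% O2 had met both changes. Cbr3 remained 1.49-fold higher (0.57 ± 0.13, adjusted p = 0.0033), Srxn1 was 1.30-fold higher (0.38 ± 0.08, adjusted p = 0.00236) and Hmox1 was 1.80-fold higher (0.85 ± 0.12, adjusted p = 2.44e-05), beside 11.4% of all genes in either direction and 6.3% higher. With the block, Nqo1 (0.60, adjusted p = 5.42e-05), Gsr (0.45, adjusted p = 0.000285) and Nfe2l2 (0.26, adjusted p = 0.0229) were also higher, giving 6 of 10 beside 34% of all genes in either direction and 16.3% higher. Gclm differed by 0.10 (95% interval -0.12 to 0.32) and did not pass. In replicates 3 and 4 alone the Srxn1 call was lost (adjusted p = 0.146).

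The effect of oxygen was measured again in cells with doxycycline and in cells with DAPT. In 1% O2+Dox against Dox, Cbr3 was lower by 0.59 (log2 difference -0.59 ± 0.13, adjusted p = 0.00538), Srxn1 had -0.36 ± 0.08 (adjusted p = 0.009) and Hmox1 0.61 ± 0.12 (adjusted p = 0.00239), 3 of 10 beside 4.07% of all genes. The block called the same 3 of 10 within Dox, beside 19.5% of all genes. In 1% O2+DAPT against DAPT the same genes passed, Cbr3 with -0.59 ± 0.13 (adjusted p = 0.00565), Srxn1 with -0.51 ± 0.08 (adjusted p = 0.000229) and Hmox1 with 0.60 ± 0.12 (adjusted p = 0.00279), 3 of 10 beside 4.04% of all genes. In both settings the samples at the 2 oxygen levels did not overlap for these genes, nor for Gclm within DAPT. That is 3 of 10 genes within Dox and 4 of 10 within DAPT, beside 8.37% and 7.63% of all genes. With the block, DAPT-treated cells also passed for Gclm (-0.32, adjusted p = 0.00172), Nqo1 (-0.29, adjusted p = 0.0433) and Nfe2l2 (0.30, adjusted p = 0.0181), 6 of 10 beside 21% of all genes. That blocked Nfe2l2 call was lost with median scaling (0.18, adjusted p = 0.151). It held with the authors' values (0.37, adjusted p = 0.0131) and with the mean of all probes (0.30, adjusted p = 0.0179). Gclm in doxycycline-treated cells had -0.17 ± 0.10 and did not pass. With median scaling and the block, Gclm (-0.21, adjusted p = 0.0437) and Nqo1 (-0.29, adjusted p = 0.044) passed there. With the authors' values and the block neither did (adjusted p = 0.127 and 0.0683). Tests of whether the oxygen effect itself differed with Dox or with DAPT called 0 of the 10 genes by limma, with or without the block, beside 0.0102% and 0% of all genes without it and 0.0204% and 0% with it. At an unadjusted p under 0.05 without the block, 0 of the 10 genes passed either test, and 57 and 58 of all genes did. With the block, 2 (Gclm and Gclc) did so for Dox and 0 for DAPT, and 398 and 418 of all genes did. Of Cbr3, Srxn1, Gclm and Hmox1, Gclm with Dox had the widest difference between oxygen effects, at 0.26 with a 95% interval of -0.05 to 0.56.

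Over the 12 pairs of samples with the same replicate number and agent, Cbr3 and Srxn1 were lower under 1% oxygen in 12 of 12 and Hmox1 was higher in 12 of 12, beside 7.48% of all genes lower and 6.88% higher in all 12. The differences ran from -0.87 to -0.39 for Cbr3, from -0.66 to -0.17 for Srxn1 and from 0.38 to 0.81 for Hmox1. Gclm was lower in 11 of 12, and Nqo1 and Txnrd1 in 10 of 12 each. The remaining genes were mixed, with Nfe2l2 higher in 10, Gsr higher in 9, Gclc lower in 7 and Prdx1 lower in 8 of 12.

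**Figure D3:**
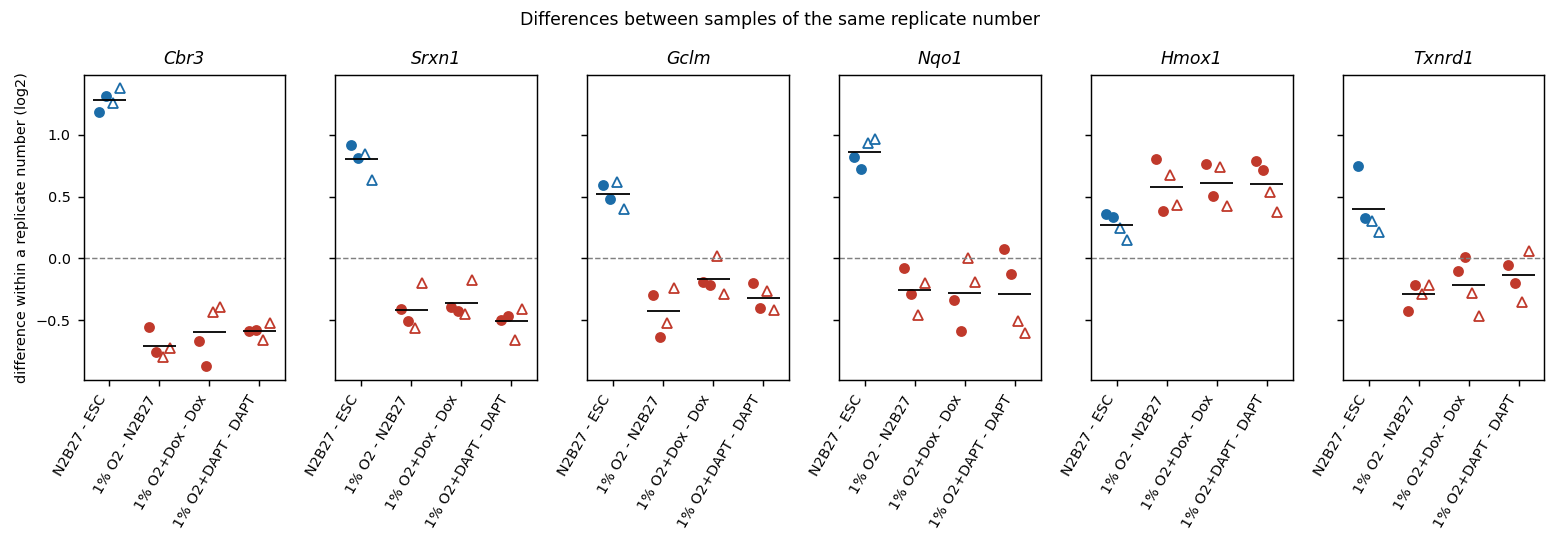
Log2 difference within each replicate number for 6 genes, in blue for N2B27 minus ESC and in red for each of the 3 pairs of groups that differ in oxygen. Filled circles are replicates 1 and 2, open triangles replicates 3 and 4, the line is the mean and the dashed line marks 0. For Cbr3 and Srxn1 all 12 red points lie below 0, and for Hmox1 all 12 lie above it.

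Of the 10 genes, Srxn1 was the closest to the threshold with doxycycline. In Dox against N2B27, 0 of the 10 genes passed (limma), beside 0.336% of all genes, and 2 (Srxn1 and Gclm) had an unadjusted p under 0.05, as did 228 of all 9809. A total of 5 genes (Srxn1, Gclm, Cbr3, Hmox1 and Nfe2l2) were lower in 4 of 4 pairs, beside 9.51% of all genes, and none was higher in 4 of 4. Srxn1 levels in Dox were 10.17, 10.23, 10.22 and 9.91, all below every N2B27 sample. Its difference was -0.35 ± 0.08 (adjusted p = 0.0658), which passed with the block (adjusted p = 0.00188, 1 of 10 beside 1.73% of all genes) and without N2B27 sample 4 (adjusted p = 0.00964). Under 1% oxygen, Srxn1 levels were 9.78, 9.81, 9.77 and 9.74 with doxycycline, again all below the samples without it. This difference of -0.29 ± 0.08 passed with the block (adjusted p = 0.0172, 1 of 10 beside 1.46% of all genes) and not without it (adjusted p = 0.525), the latter beside 0.194% of all genes. With DAPT, 0 of the 10 genes passed at either oxygen level, with or without the block, and 0% of all genes passed by limma in either fit. At an unadjusted p under 0.05 without the block, 0 of the 10 genes passed at either level, beside 82 and 105 of 9809 genes.

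The order of the 7 groups differed between genes. Cbr3 fell into 3 tiers: N2B27, DAPT and Dox at mean log2 levels of 10.28, 10.23 and 10.03, the 3 groups under 1% oxygen between 9.64 and 9.44, and ESC at 8.99. By the larger of the SDs of neighbours in this order, the gaps that exceeded it were those between the tiers. Srxn1 and Gclm also had N2B27 and DAPT on top and ESC at the bottom, with Dox next below DAPT, and for Gclm the only gap larger than the SDs was that between DAPT and Dox. For Nqo1 the only such gap set ESC, at 8.08, apart from the rest. Hmox1 had the 3 groups under 1% oxygen on top, from 13.07 to 12.87, above N2B27 at 12.50. For Txnrd1, Gsr, Gclc, Prdx1 and Nfe2l2 no neighbours differed by more than their SDs. These SDs include the split between replicate sets. Against SDs of values centred within replicate numbers, Cbr3 also had a gap from DAPT to Dox (0.20 against 0.087), Gclm from Dox to 1% O2+DAPT (0.061 against 0.051) and from 1% O2+Dox to ESC (0.094 against 0.082), and Gsr from Dox to ESC (0.21 against 0.12). Srxn1 gained a gap from 1% O2+Dox to ESC (0.095 against 0.068). It lost the gap from 1% O2 to 1% O2+DAPT (0.091 against 0.106). Hmox1 gained a gap from DAPT to Dox (0.12 against 0.065). Txnrd1, Gclc, Prdx1 and Nfe2l2 had no such gap on either measure.

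The wider pathway was read through lists of other NRF2 targets, regulators and antioxidant enzymes. Of 19 other NRF2 targets tested, out of 29 listed, 1 passed in either comparison: Gpx2, a glutathione peroxidase, was higher in N2B27 than in ESC (0.67 ± 0.11, adjusted p = 0.000978) and lower in 1% O2 than in N2B27 (-0.56 ± 0.11, adjusted p = 0.00186). The share of all genes that passed was 1.94% for the medium and 4.12% for oxygen. The medians of these 19 were 0.19 for the medium and -0.07 for oxygen, against 0.01 and -0.02 over all genes. With the block 9 of the 19 were higher in N2B27, namely Gpx2, Sqstm1, the glutathione transferases Gsta4, Gstm2 and Gstp1, the ferritin heavy chain Fth1, Aldh3a1, Ephx1 and Blvrb, and none was lower, beside the 8.37% of all genes that were higher. For oxygen with the block, Gpx2, Gstp1 (-0.36, adjusted p = 0.0015) and the transporter gene Abcc4 (-0.33, adjusted p = 0.00282) were lower and Sqstm1 (0.32, adjusted p = 0.0437) was higher, which makes 4 of 19 beside 20% of all genes.

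Among 8 regulators tested, Keap1, the inhibitor of NRF2, was higher in N2B27 than in ESC (0.31 ± 0.08) and so was Mafg, a small MAF partner (0.35 ± 0.09), each with adjusted p = 0.0436. That is 2 of 8 beside 1.94% of all genes, and both calls were close to the threshold. Both also passed with the block, and they were not followed in the other settings. The repressor gene Bach1 joined them with the block (0.39, adjusted p = 0.000769), giving 3 of 8 beside 16.1% of all genes. Under 1% oxygen Maff, another small MAF partner, was higher than in N2B27 (0.71 ± 0.09, adjusted p = 1.38e-05). It was the only regulator that passed, 1 of 8 beside 4.12% of all genes. The 17 other antioxidant enzymes tested included the superoxide dismutases Sod1 and Sod2 and catalase. By limma 0 of 17 passed in either comparison, beside 1.94% of all genes for the medium and 4.12% for oxygen. At an unadjusted p under 0.05, 1 passed for the medium and 0 for oxygen, beside 1088 and 1353 of all 9809 genes. With shares this small, 0 of 17 does not set these enzymes apart from other genes. Catalase (Cat) was dim, above background in 7 of 28 samples, so its result says little. With the block Gpx3 (0.21, adjusted p = 0.0426) and Gpx7 (0.35, adjusted p = 0.00287) were higher in N2B27, 2 of 17 beside 8.37% of all genes, and 0 passed for oxygen.

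**Figure D4:**
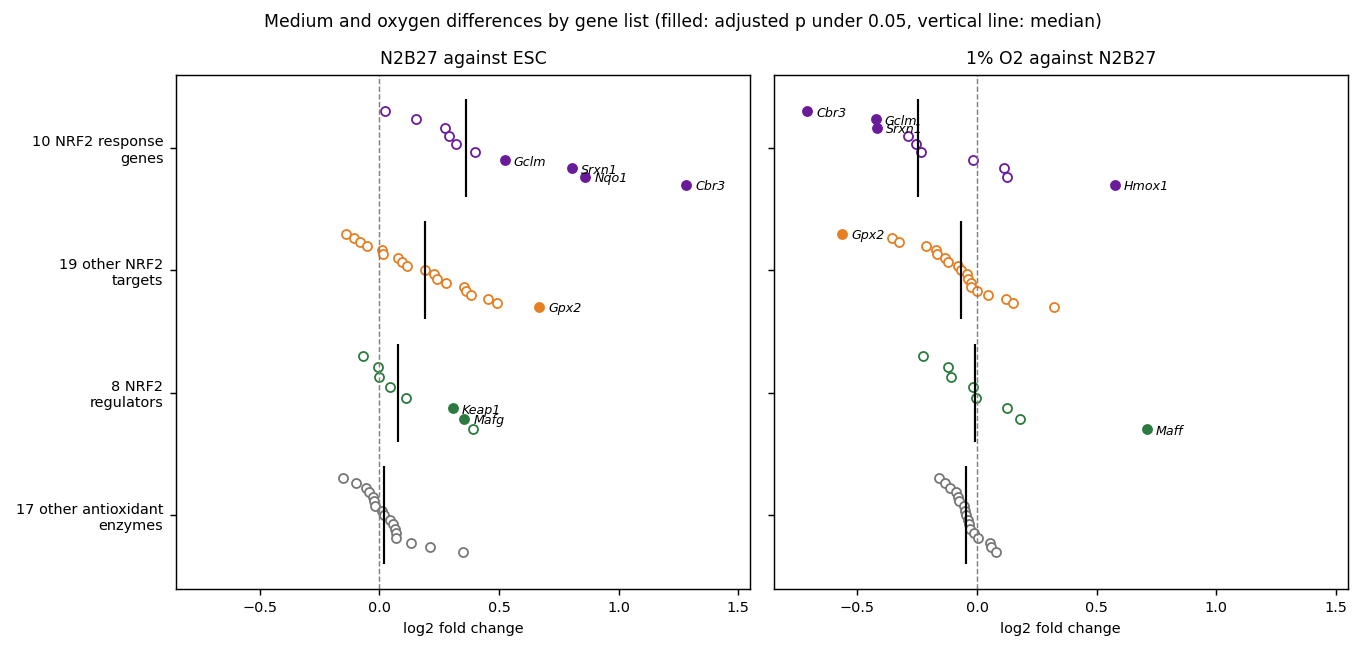
Log2 fold change of each tested gene by list, in N2B27 against ESC on the left and in 1% O2 against N2B27 on the right, where both panels use the same N2B27 samples. Filled points passed at an adjusted p under 0.05 without the block and carry their names, and vertical lines are list medians. The medians of the 10 NRF2 response genes lie at 0.36 and -0.24. The 17 other antioxidant enzymes have no filled point, where 1.94% (left) and 4.12% (right) of all genes passed.

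The genes most like the mean of the 10 across the 28 samples, each centred within its replicate number, were Vstm4 (Pearson r = 0.91), Dhx32 (0.90), Stra8 (0.89), Fth1 (0.87) and Uck1 (0.85). The 28 points share 4 replicate numbers and the same 7 conditions, so these values describe a pattern and carry no test. All of these genes had a positive medium difference, from 0.38 for Fth1 to 1.71 for Vstm4, and oxygen differences between -0.31 and -0.01, of which none passed with or without the block.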

How the data were processed

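RNA of 28 ES cell samples was read on 30 arrays, of which Dox samples 3 and 4 had 2 each, averaged here. The deposited main table gives each probe's intensity on a linear scale. Per the file headers these are non-normalized, and the submitters' processing notes name BeadStudio. Between 27.2% and 29.9% of intensities were below 0 on each array, so a background had been subtracted already. The authors' processed values, with a floor of 50 and a scaling not given in the sources used here, served as an alternative. Intensities were corrected with normexp (offset 0), put on the log2 scale and quantile normalized in limma 3.58.1 (R 4.3.3). Probes with 1 symbol were kept where they exceeded their array's median in at least 4 samples, leaving 12259, and the probe with the highest mean stood for each of 9809 genes. A probe counted as above background beyond the 98th percentile of its array's negative signals mirrored around 0 (29.3 to 41.6 signal units). For arrays, precision is limited by how many there are.

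A linear model with a mean for each of the 7 groups (limma's lmFit and eBayes, leaving 21 residual degrees of freedom, or 18 with the replicate number as a block) gave two-sided tests with Benjamini-Hochberg adjustment over 9809 genes within each comparison. Errors after ± are standard errors and intervals cover 95%. All 36 correlations between deviations of same-numbered samples lay above 0.1 (0.72 to 0.83). The numbers were taken to pair the samples, which these correlations do not establish, because the split between replicate sets also raises them. The blocked result is given where it changes a call. The method was tested on simulated data with independent noise in each sample and no shared replicate effect. That test does not show how either fit behaves with the split between replicate sets found here. Alternatives were the block, median scaling, an offset of 50, no filter on dim probes, the mean over a gene's probes, the authors' values, first arrays only, each replicate set alone and each sample left out. Named were all 10 genes, the genes of the other lists past the threshold, and the 5 genes most like their mean. The 10 genes and the lists were chosen with earlier results of these data known.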

Additional observations from a re-analysis of the deposited data

Results flagged for a closer look

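Of 70 sets of 4 values (10 genes in 7 groups), 1 held a sample far from the others by Dixon's criterion (the critical value at the 95% level for 4 samples), and chance flags about 1 in 20 sets. It was Prdx1 in 1% O2, where replicate 2 had a log2 level of 15.08 and the other 3 samples shared the value 15.10. The gap is 0.03 on the log2 scale, and quantile normalization gives equal values to probes of equal rank (this probe ranks among the brightest 64 of 24611).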

How the results depend on the processing

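With the replicate number as a block, more of the 10 genes passed: 7 in N2B27 against ESC, 6 in 1% O2 against ESC, 5 for the medium effect minus the oxygen effect, 6 in 1% O2+DAPT against DAPT, and 1 each in Dox against N2B27 and 1% O2+Dox against 1% O2. The numbers of genes passing in the other 6 comparisons stayed within 1.5 times. With replicates 1 and 2 alone, 2 genes passed in N2B27 against ESC. With replicates 3 and 4 alone, 1 passed in 1% O2 against N2B27, 1 for the difference of effects, 1 in 1% O2+DAPT against DAPT and 0 in 1% O2+Dox against Dox. These fits hold 2 samples per group. Gclm passed in neither set alone, for the medium (adjusted p = 0.191 and 0.0566) or for oxygen (adjusted p = 0.111 and 0.14). In replicates 1 and 2 Nqo1 lost its medium call (adjusted p = 0.34). In replicates 3 and 4 Srxn1 and Hmox1 lost their calls in 1% O2 against N2B27 (adjusted p = 0.258 and 0.0733). An offset of 50 gave 1 gene, Srxn1, in Dox against N2B27. With any single sample left out the number was 3 to 4 in N2B27 against ESC, in 1% O2 against N2B27 and in 1% O2 against ESC, 3 for the difference of effects and for oxygen within Dox and within DAPT, and 0 to 1 in Dox against N2B27, where the 1 is Srxn1 without N2B27 sample 4. It was 0 in the other comparisons with doxycycline or DAPT. Shares of all genes passing are given above for the fits with and without the block, and were not counted for the other settings.

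Fits that combined the block with another setting were added after seeing the data. Median scaling then gave 5 genes in 1% O2+Dox against Dox (Nqo1, Srxn1, Gclm, Cbr3 and Hmox1) and 0 in 1% O2+Dox against 1% O2. The authors' values and the mean of all probes each gave 2 in Dox against N2B27. With the block alone, 19.5% of all genes passed in 1% O2+Dox against Dox. The blocked share was 1.46% in 1% O2+Dox against 1% O2 and 1.73% in Dox against N2B27. For the combined fits the share of all genes was not counted. Signs turned for differences near 0 that never passed: Nqo1 in Dox against N2B27 was -0.033 with the mean of its probes and -0.080 in replicates 3 and 4, and Prdx1 was -0.015 for the medium in replicates 1 and 2 and 0.0076 for oxygen in replicates 3 and 4. With a sample left out, the medium difference ranged from -0.070 to 0.34 for Nfe2l2 and from -0.0019 to 0.040 for Prdx1. The oxygen difference then ranged from -0.071 to 0.28 for Nfe2l2, from -0.029 to 0.0072 for Prdx1, from -0.044 to 0.28 for Gsr and from -0.50 to 0.017 for Gclc. Nqo1 in Dox against N2B27 ranged from -0.074 to 0.22. The Nqo1 medium call was lost without the filter on dim probes (adjusted p = 0.0675) and with the mean of its probes (adjusted p = 0.079). That mean also ended Srxn1 calls in 1% O2 against N2B27, against ESC and within DAPT (adjusted p = 0.062, 0.105 and 0.0705). Gclm passed in 1% O2+DAPT against DAPT with median scaling and with the authors' values (adjusted p = 0.0031 and 0.0391). The cause of these changes was not tested. Signal limits Gclc and the dimmer probes of Nqo1 and Nfe2l2, which lay above background in 19, 12 and 0 of 28 samples.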
